A study of Mus musculus with 4 samples.

Results

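Transcripts of the transforming growth factor beta (TGF-beta) pathway were followed across 4 single-cell libraries of sorted mouse brain microglia. The members were the genes whose symbol stands in a list of 10 pathway names; Lrrc33 is an older name of Nrros, so the list matched 9 of the 12800 genes in the deposited table. The list was drawn up with earlier results of these data known, although matching symbols to it used no measured value. Of the 9, 3 (Tgfbr2, Smad4 and Smad7) were among the 4895 genes from which the authors made their cell clusters. The 4 libraries were KO cuprizone (Trem2-/-), Het cuprizone (Trem2+/-), WT cuprizone (Trem2+/+) and WT control (Trem2+/+ without the drug), with 1 library in each group. Trem2 encodes a lipid-sensing receptor of microglia, and cuprizone is a copper chelator in the diet whose toxicity to oligodendrocytes removes myelin. All mice were males of 12 to 14 months that had been on the control diet or on 0.2% cuprizone for 12 weeks. Each library pooled the hemibrains of 2 animals, and 30000 live CD11b+ CD45low cells were sorted from each hemibrain, so differences between single animals are not visible. The allele behind the knockout is not given in the sources used here.

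TGF-beta1 is secreted bound to its own propeptide and stays latent until an integrin or another partner frees it. The protein made from Nrros holds the latent form on the surface of microglia and other macrophages. Free ligand binds TGFBR2, which phosphorylates TGFBR1, and TGFBR1 in turn phosphorylates SMAD2 and SMAD3. These enter the nucleus with SMAD4, while SMAD7 blocks the receptor and SKI represses transcription at SMAD-bound genes. In the mouse brain this signal is known to be needed for microglia to keep their resting gene programme, including P2ry12 and Tmem119.

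Promoter sequence is shown for the ligand, its anchor and the receptor Tgfbr1, 3 genes early in the pathway that were picked with their cluster levels known. Each is the 250 bases before the RefSeq start of the gene on GRCm38.p6, read 5′ to 3′ on the strand of the gene, with CG dinucleotides in capitals.
Tgfb1 (chr7:25686752-25687001, plus strand): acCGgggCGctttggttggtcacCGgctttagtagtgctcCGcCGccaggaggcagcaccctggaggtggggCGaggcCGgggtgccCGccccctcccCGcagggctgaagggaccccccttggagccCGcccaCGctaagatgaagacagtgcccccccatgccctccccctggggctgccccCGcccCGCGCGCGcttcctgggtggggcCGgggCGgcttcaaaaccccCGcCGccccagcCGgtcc
Nrros (chr16:32165595-32165844, minus strand): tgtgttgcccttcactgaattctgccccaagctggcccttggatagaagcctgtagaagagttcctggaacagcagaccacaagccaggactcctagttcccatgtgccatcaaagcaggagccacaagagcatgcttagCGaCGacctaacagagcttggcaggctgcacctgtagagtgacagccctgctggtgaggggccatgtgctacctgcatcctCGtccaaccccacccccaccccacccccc
Tgfbr1 (chr4:47352972-47353221, plus strand): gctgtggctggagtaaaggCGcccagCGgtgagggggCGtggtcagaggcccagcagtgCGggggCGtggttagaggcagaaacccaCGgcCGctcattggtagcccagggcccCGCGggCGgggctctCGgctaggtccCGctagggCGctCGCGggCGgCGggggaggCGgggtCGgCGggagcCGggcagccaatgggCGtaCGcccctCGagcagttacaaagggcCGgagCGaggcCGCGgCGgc
The Tgfb1 and Tgfbr1 windows hold 21 and 29 CG dinucleotides at 75.2% and 74.8% G or C. The Nrros window holds 3 CG dinucleotides at 58.4% G or C, against medians of 6 and 52.4% over 32851 mouse promoters of the same length. A second RefSeq start of Tgfbr1 also has 3 CG dinucleotides. The SMAD palindrome GTCTAGAC, the PU.1 motif GAGGAAGT and the AP-1 motif TGACTCA, searched on both strands, are in none of the 3 windows printed. They occur in 0.167%, 2.44% and 4.46% of all promoters.

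The genes lie on 5 chromosomes in mouse build mm10 (GRCm38, GENCODE M21 annotation). The ligand gene is Tgfb1 (ENSMUSG00000002603, chromosome 7, 25687002 to 25705077, plus strand), and its anchor is Nrros (ENSMUSG00000052384, chromosome 16, 32142785 to 32165594, minus strand). The receptors are Tgfbr1 (ENSMUSG00000007613, chromosome 4, 47353222 to 47414931, plus strand) and Tgfbr2 (ENSMUSG00000032440, chromosome 9, 116084293 to 116175360, minus strand). Of the signalling SMADs, Smad2 (ENSMUSG00000024563, chromosome 18, 76241580 to 76310963, plus strand) and Smad4 (ENSMUSG00000024515, chromosome 18, 73639009 to 73703780, minus strand) share a chromosome with the inhibitor Smad7 (ENSMUSG00000025880, chromosome 18, 75367529 to 75395935, plus strand), while Smad3 (ENSMUSG00000032402, chromosome 9, 63646767 to 63757994, minus strand) lies on the chromosome of Tgfbr2. The co-repressor is Ski (ENSMUSG00000029050, chromosome 4, 155154075 to 155222592, minus strand).

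The libraries held 885 KO, 802 Het and 765 WT cuprizone cells and 571 WT control cells, 3023 in all, in 8 clusters numbered by the authors. Unless a cluster is named, levels are unique molecular identifiers (UMIs, 1 per captured transcript) summed over clusters 01, 02, 04, 05, 06 and 08 and divided by all UMIs of the same cells, times 1000000 (CPM). Clusters 03 and 07 were kept apart because they carry markers of other cell types. The sums rest on 6514310, 6552603 and 6175520 UMIs in the KO, Het and WT cuprizone libraries and 3638474 UMIs in the WT control library. Median depth per cell was 6061, 6849 and 6588 UMIs in those cuprizone libraries, against 4717 UMIs in WT control. Trem2 itself was at 520.1, 1763 and 2939 CPM in the KO, Het and WT cuprizone libraries and 3132 CPM in WT control, an order that follows the genotypes; its 3′ UMIs need not report the deleted part. All 10 microglia markers were detected in every library, with sums of 26101, 23621 and 23580 CPM in KO, Het and WT cuprizone and 28604 CPM in WT control. Neutrophil markers summed to 632.9, 1744 and 47.4 CPM in the KO, Het and WT cuprizone libraries and 0.275 CPM in WT control, where 7 of 8 were at 0; their part in the results below was not tested. The marker sums of 9 other brain and blood cell types stayed between 10.6 and 418 CPM. For 3 of these types few listed markers were in the deposited counts. They were 2 of 5 for T or NK cells, 1 of 4 for B cells and 1 of 4 for dendritic cells. Across all cells, 8 barcodes occurred in more than 1 library.

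With 1 library per group there is no replicate check and no test, and the ranges in parentheses are exact 95% intervals that cover counting error only. A gene was called when its ratio reached 1.5 in either direction, its interval left out 1 and the libraries compared held 50 UMIs or more between them. All 9 members were detected in every library, and their single highest cell held between 0.205% and 0.708% of their UMIs. No member was called in any of the 3 comparisons between libraries. For every member the pooled library levels spanned a smaller range than the cluster means. These ranges are not alike, because library sums average over clusters and cluster means rest on fewer UMIs. Smad2, Smad3 and Smad4 have few UMIs per cluster. Inside cluster 08, Smad7 ran from 89.1 CPM in Het to 195 CPM in WT cuprizone. Across libraries the highest level of a member was between 1.09 and 1.42 times its lowest, and across the means of the 6 pooled clusters between 1.45 and 4.31 times.

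Tgfb1, the ligand, was measured at 392 (377 to 408), 385 (371 to 401) and 414 (398 to 430.4) CPM in the KO, Het and WT cuprizone libraries and 461 (439 to 484) CPM in the WT control library. The 3 cuprizone libraries lay close together and below WT control, whose interval met none of theirs. Nrros, the anchor of the latent ligand, stood at 149.7 (140.4 to 159), 146 (137 to 156) and 150.3 (141 to 160.3) CPM in the KO, Het and WT cuprizone libraries and 178 (164 to 192) CPM in the WT control library. The cuprizone levels of Nrros could not be separated from each other, and the control library again was highest.

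Levels of Tgfbr1, the receptor kinase that phosphorylates the SMADs, were 534 (517 to 552), 579 (561 to 598) and 597 (577 to 616) CPM in the KO, Het and WT cuprizone libraries and 655 (629 to 682) CPM in the WT control library. The order ran from KO up to WT control, and the KO interval lay below the intervals of the other libraries, while Het and WT cuprizone overlapped. For Tgfbr2, which binds the ligand first, the values were 117 (109 to 126), 121 (113 to 130.2) and 112 (104 to 121) CPM in the KO, Het and WT cuprizone libraries and 133 (121 to 145) CPM in the WT control library. The intervals of the 3 cuprizone libraries overlapped, and WT control stood just above that of WT cuprizone.

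Among the signal carriers, Smad2 came to 32.2 (28.0 to 36.9), 32.5 (28.3 to 37.2) and 29.1 (25.0 to 33.7) CPM in the KO, Het and WT cuprizone libraries and 39.6 (33.4 to 46.6) CPM in the WT control library. Smad2 rested on 210, 213 and 180 UMIs in KO, Het and WT cuprizone and 144 UMIs in WT control, and the WT control and WT cuprizone intervals met only at their ends. Smad3 had 22.7, 22.1 and 23.3 CPM in the KO, Het and WT cuprizone libraries and 24.2 CPM in the WT control library, and Smad4, the shared partner, had 14.0, 13.9 and 15.9 CPM in the KO, Het and WT cuprizone libraries and 17.9 CPM in the WT control library. The 4 libraries overlapped for both Smad3 and Smad4.

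Smad7, which shuts the receptor down and is itself induced by TGF-beta, was found at 159 (149.8 to 169), 148 (139 to 158) and 182 (171 to 193) CPM in the KO, Het and WT cuprizone libraries and 211 (196 to 226) CPM in the WT control library. Its order was Het, KO, WT cuprizone and WT control from low to high; the intervals of Het and KO overlapped, and those of WT cuprizone and WT control met neither these nor each other. Ski, the nuclear co-repressor, had 113 (105 to 122), 111 (103 to 119) and 101 (93.0 to 109) CPM in the KO, Het and WT cuprizone libraries and 106 (95.2 to 117) CPM in the WT control library. The ordering of Ski was different, with KO highest and WT cuprizone lowest, and the intervals of all 4 libraries overlapped.

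**Figure D1:**
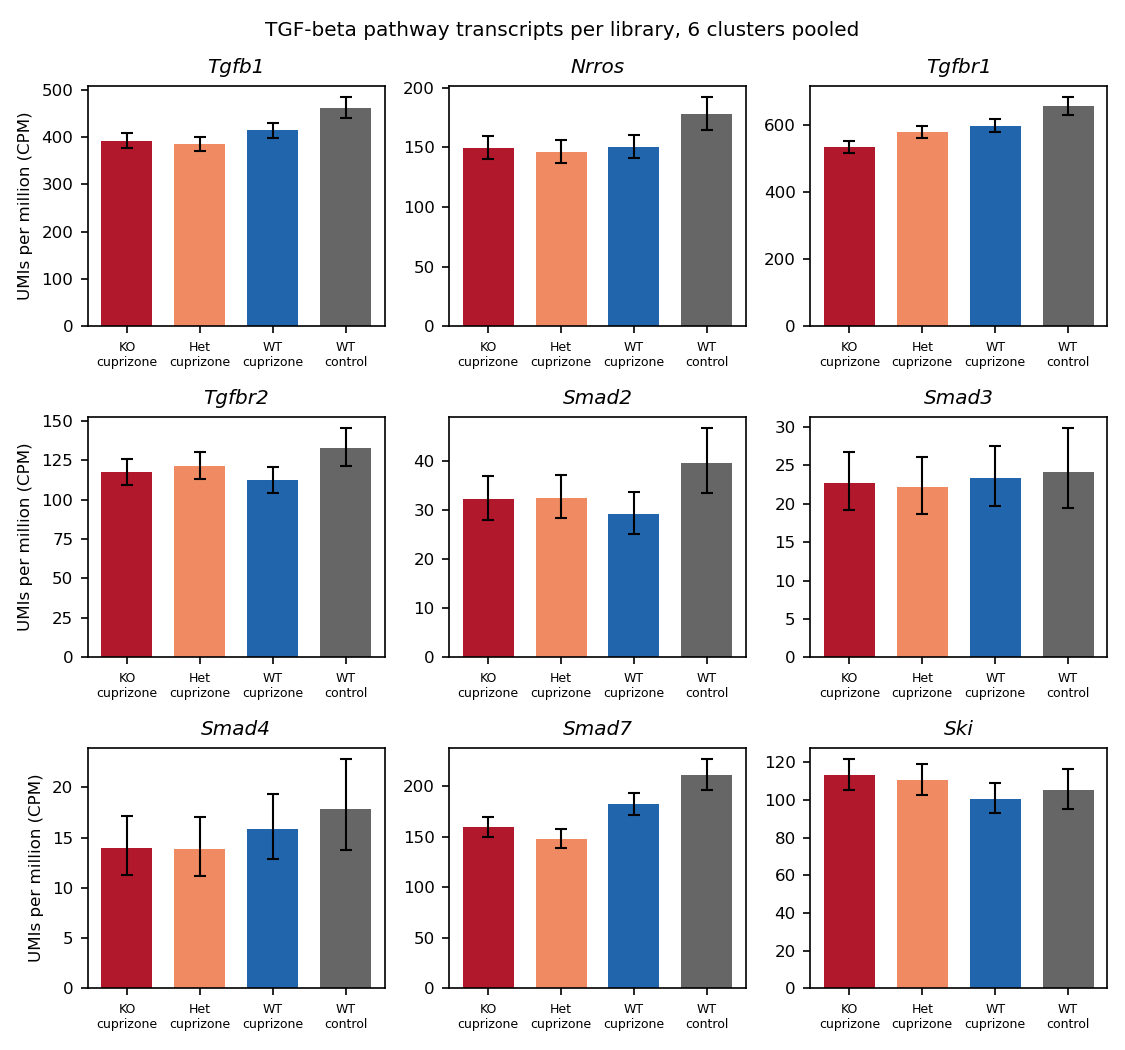
Level in CPM (vertical axis, from 0) of each of the 9 members in the KO, Het and WT cuprizone libraries and the WT control library (bars; whiskers, exact Poisson 95% intervals), over 6 pooled clusters. Every member but Ski is highest in WT control, where Smad7 reaches 211 CPM, and the Ski bars lie between 101 and 113 CPM.

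In the comparison of KO with WT cuprizone, which asks what the loss of Trem2 changes during demyelination, 0 of 9 members were called, against 5.51% of the 9189 genes with enough UMIs (1.64% higher and 3.86% lower). The median log2 ratio of the members was -0.04, beside 0.00 over all genes. Tgfbr1 and Smad7 had intervals below 1, with ratios of 0.895 (0.855 to 0.938) and 0.876 (0.805 to 0.954). Ski was the 1 member with an interval above 1, at 1.12 (1.01 to 1.25). An interval below 1 was found for 10.6% of all genes and one above 1 for 9.51%, and 9 members are too few to be told from that background. The other ratios ran from 0.880 for Smad4 to 1.11 for Smad2. Cluster 08, where Tgfbr1 was lowest among the pooled clusters (below), held 175 of 753 KO cells and 76 of 663 WT cuprizone cells. Cluster 04, where Tgfbr1 was also low, held 13 KO and 122 WT cuprizone cells. Without cluster 08 the Tgfbr1 ratio was 0.948, above its main interval, and with every cluster weighted at its WT cuprizone share it was 0.873. At those shares all 9 members were below 1, with a median log2 ratio of -0.14, beside -0.01 over all genes. This weighting counts the 13 KO cells of cluster 04 as heavily as the 122 WT cuprizone cells. In those KO cells the members had between 0 UMIs (Smad4) and 47 UMIs (Tgfb1), with 6 for Ski.

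For Het against WT cuprizone, 0 of 9 members were called, with 2.49% of 9248 genes called (1.32% higher and 1.17% lower). This comparison shares the WT cuprizone library with the KO comparison, so their ratios are not independent. The member median was -0.04, beside -0.01 over all genes. Smad7 had the lowest ratio, 0.814 (0.746 to 0.888), and Tgfb1, at 0.931 (0.881 to 0.984), was the other member with an interval below 1. Tgfbr1 was at 0.971 (0.928 to 1.02) and Ski at 1.10 (0.986 to 1.22), and both intervals held 1. The remaining 5 ratios lay between 0.875 for Smad4 and 1.12 for Smad2.

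WT cuprizone against WT control, the comparison of demyelination in wild-type mice, again called 0 of 9 members, with 7.03% of 8819 genes called (2.59% higher and 4.44% lower). All 9 ratios were below 1, and 6 of 9 intervals lay wholly below 1, against 17.9% of those of all genes. Smad2 had the lowest ratio, 0.736 (0.588 to 0.923). Next came Tgfbr2 at 0.845 (0.752 to 0.951), Nrros at 0.846 (0.765 to 0.937) and Smad7 at 0.863 (0.786 to 0.947). Tgfb1 was at 0.898 (0.844 to 0.956) and Tgfbr1 at 0.911 (0.865 to 0.960). The median log2 ratio of all genes was itself -0.11, against -0.17 for the members, and 7 of 9 members lay below the median of all genes. With library sizes scaled by TMM, which moves the median of all genes to 0.01, 7 members were below 1 and 2 above, and every interval held 1. Under that scaling Tgfb1 was at 0.975, Tgfbr1 at 0.989, Smad7 at 0.936 and Smad2 at 0.799. That all 9 lay below 1 therefore depended on the scaling. The member median under TMM was -0.05. Of called genes, 63.2% were higher with TMM, against 36.8% with total UMIs. Cluster 04 held 122 WT cuprizone and 6 WT control cells. With every cluster weighted at its WT cuprizone share, 6 members were below 1 and 3 above. Their median log2 ratio was then -0.09, beside -0.03 over all genes, and rests on those 6 WT control cells. The part of cluster make-up was not tested.

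**Figure D2:**
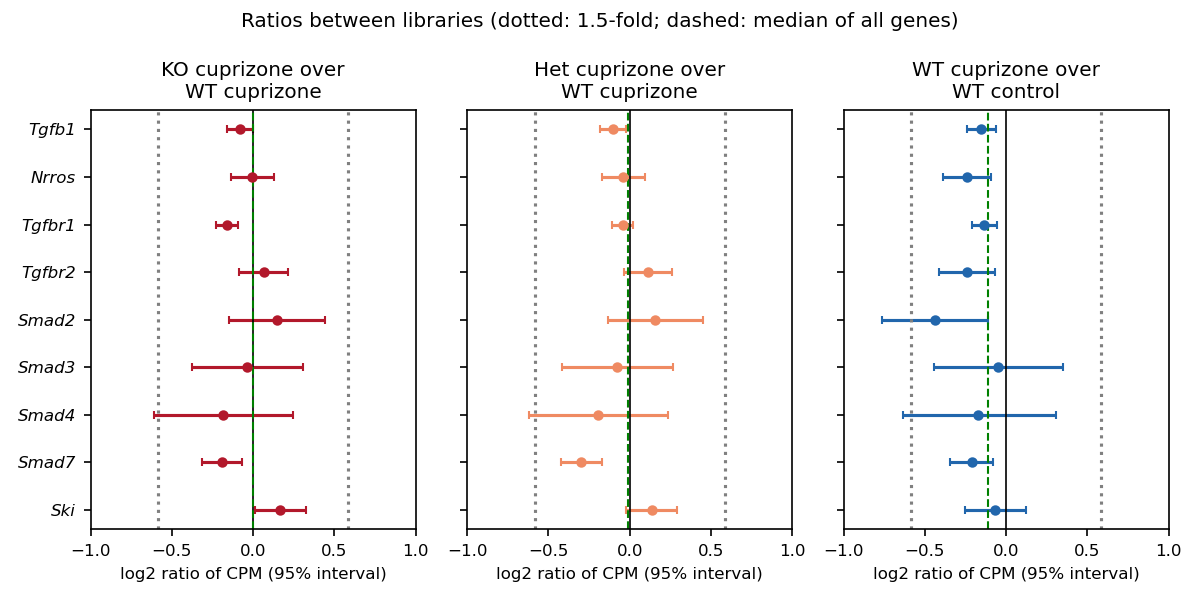
Log2 ratio of CPM (horizontal axis) of each member in KO over WT cuprizone, Het over WT cuprizone and WT cuprizone over WT control (points; whiskers, 95% counting intervals), with dotted lines at 1.5-fold and a dashed line at the median of all genes. No point lies past a dotted line; Smad7 is left of 0 in all 3 panels, at ratios of 0.876, 0.814 and 0.863.

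The same comparisons were then made inside single clusters with at least 20 cells in both libraries. Over these 18 comparisons, cluster 03 left aside, 5 of 122 member ratios with enough UMIs were called (4.1%), against 4.86% of the ratios of all genes. The 5 calls are given below as single values. Smad7 in cluster 08 accounted for 2 of them. Its level there was 119 (101 to 139.6) CPM in KO and 89.1 (63.6 to 121) CPM in Het, against 195 (157 to 241) CPM in WT cuprizone. These rest on 151, 40 and 89 UMIs. The WT cuprizone interval lay above both others, and the ratios were 0.609 (0.465 to 0.800) for KO and 0.456 (0.306 to 0.669) for Het over WT cuprizone. Smad7 was the 1 member called among the 6 with enough UMIs in each of these comparisons, where 4.32% and 2.89% of genes were called lower. Median depth in cluster 08 was 6285, 5108 and 5857 UMIs per cell in KO, Het and WT cuprizone. The sums of microglia markers there were 24034, 23218 and 24156 CPM, nearly level. Of the 2 T or NK cell markers in the deposited counts, Nkg7 was at 0 there and Ccl5 was at 153, 24.5 and 8.79 CPM. The part of Ccl5-bearing cells in the result was not tested. Leaving out the highest cell of each library gave 0.620 for KO and 0.435 for Het. In cluster 05 the KO over WT cuprizone ratio of Smad7 was 0.996 (0.784 to 1.26), and in cluster 02 it was 0.846 (0.752 to 0.952). Whether cluster 08 differs from these was not tested. For Het, Smad7 was at 0.715 (0.579 to 0.883) in cluster 04, which is below 1 but not past 1.5-fold.

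In cluster 07, Tgfbr1 was measured at 459.8, 369 and 409 CPM in the KO, Het and WT cuprizone libraries and 634 CPM in WT control. The WT cuprizone over WT control ratio was 0.645 (0.558 to 0.745), the 1 call among 7 members there, where 6.31% of genes were called lower. Cluster 07 carries markers of border-associated macrophages, the macrophages of the meninges and vessels, at sums of 3124, 4085 and 3565 CPM in KO, Het and WT cuprizone and 2861 CPM in WT control. Its microglia markers summed to 19206, 16209 and 16850.3 CPM in those cuprizone libraries, against 20772 CPM in WT control, and its median depth was 6324 UMIs in WT cuprizone and 12319 in WT control. The marker sums and the depth thus differed in the same comparison as Tgfbr1, and their part in it was not tested. In cluster 06, Smad7 was called lower in WT cuprizone than in WT control, at 125 (95.5 to 161) against 200.004 (163 to 243) CPM, a ratio of 0.625 (0.447 to 0.869); 2.3% of genes were called lower there. The 1 member called higher in such a comparison was Tgfbr2 in cluster 01, on 46 UMIs in Het and 22 in WT cuprizone, with a ratio of 1.82 (1.07 to 3.18) and 2.22% of genes called higher. In the deepest cluster, 02, Tgfbr1 was at 625 (599 to 652) CPM in KO and 748 (716 to 781) CPM in WT cuprizone. That ratio, 0.836 (0.787 to 0.888), had an interval well below 1 but did not pass 1.5-fold, while in cluster 05 it was 0.977 (0.855 to 1.12).

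**Figure D3:**
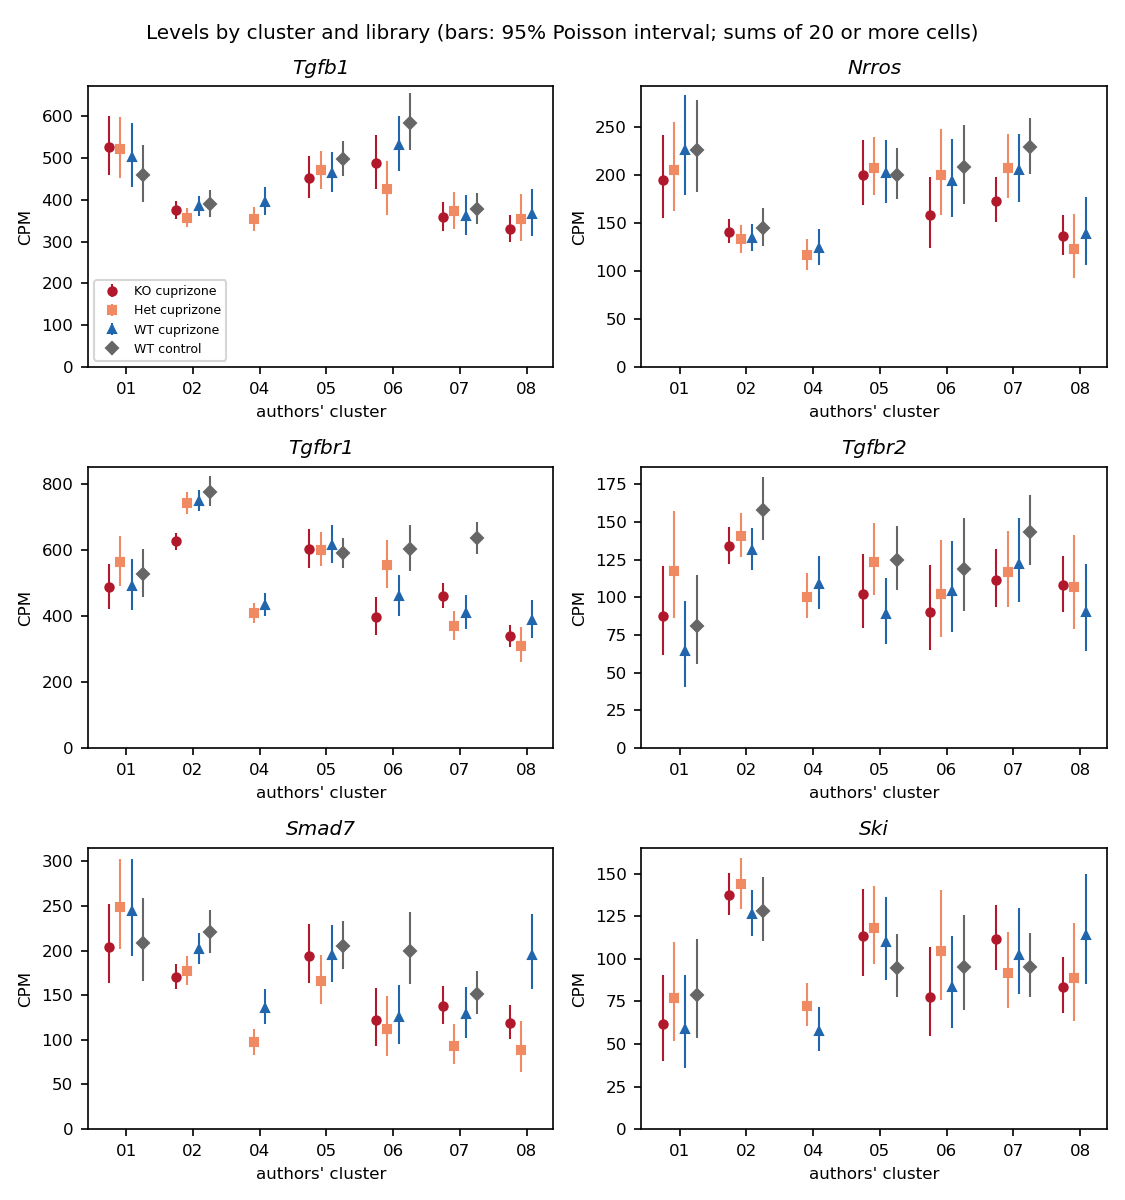
Level in CPM (vertical axis, from 0) of 6 members in each cluster (horizontal axis) and library (symbols; whiskers, exact Poisson 95% intervals), for sums of at least 20 cells. Smad7 in cluster 08 is at 195 CPM in WT cuprizone, above KO and Het, and Tgfbr1 in cluster 07 is at 634 CPM in WT control, above the 3 cuprizone libraries.

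Levels were next compared between clusters within each library. Cluster 05, with 96, 112 and 103 cells in the KO, Het and WT cuprizone libraries and 138 in WT control, was taken as the comparator. Its microglia markers summed to 30636 CPM and its Spp1, a gene of activated microglia, was at 117 CPM in WT cuprizone. Cluster 04 had 150 Het and 122 WT cuprizone cells, but 13 KO and 6 WT control cells, so it was described in Het and WT cuprizone only. There Spp1 reached 5335 CPM and P2ry12 was at 1036 CPM in WT cuprizone, against 3712 CPM of P2ry12 in cluster 05. The clusters were made from the same cells, with 3 of the members among the genes used, so these ratios describe the clusters and test nothing.

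In cluster 04 the anchor Nrros was lower than in cluster 05 in both libraries. Its level was 116 CPM in cluster 04 and 207 CPM in cluster 05 in Het, and 124 against 202 CPM in WT cuprizone. The ratios were 0.560 (0.457 to 0.686) and 0.613 (0.491 to 0.767). Ski was also lower in both, at 0.612 (0.470 to 0.799) in Het and 0.523 (0.381 to 0.719) in WT cuprizone. Smad7 passed 1.5-fold in Het, at 0.584 (0.467 to 0.732), and had 0.696 (0.559 to 0.868) in WT cuprizone. Smad2 passed in Het alone, on few UMIs, at 0.503 (0.314 to 0.805); in WT cuprizone it had 0.793 (0.469 to 1.36). That made 4 of 7 members with enough UMIs lower in Het and 2 of 7 in WT cuprizone, where 24.6% and 21.5% of all genes were lower. The median log2 ratios of these members were -0.71 and -0.51, beside -0.30 and -0.23 over all genes. Tgfbr1 was below 1 in both without passing the rule, at 0.680 (0.607 to 0.762) and 0.705 (0.624 to 0.796). Tgfb1 had 0.751 (0.663 to 0.852) and 0.852 (0.744 to 0.976), and Tgfbr2 had intervals that held 1. Smad3 and Smad4 had too few UMIs to be read.

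Tgfbr1 was low in cluster 08. The receptor was at 338, 309 and 387 CPM in cluster 08 of KO, Het and WT cuprizone, against 602, 600.1 and 615 CPM in cluster 05. The ratios were 0.562 (0.490 to 0.644), 0.516 (0.425 to 0.623) and 0.628 (0.525 to 0.749), past 1.5-fold in all 3 libraries. Smad7 was lower in cluster 08 in KO, at 0.612 (0.483 to 0.777), and in Het, at 0.536 (0.368 to 0.764), while WT cuprizone had 1.002 (0.762 to 1.31). Nrros was called in Het alone, at 0.590 (0.429 to 0.801). In all, 2 of 6 members were lower in KO, 3 of 7 in Het and 1 of 6 in WT cuprizone, with 15.7%, 14.4% and 10.8% of all genes lower. The WT control library had 13 cells in cluster 08 and was not described. Cluster 07 also had Tgfbr1 below cluster 05 in the cuprizone libraries, at 0.764 (0.673 to 0.869) in KO, 0.615 (0.530 to 0.712) in Het and 0.665 (0.570 to 0.775) in WT cuprizone, against 1.08 (0.965 to 1.20) in WT control. Smad7 there was at 0.708 (0.562 to 0.894), 0.559 (0.414 to 0.747) and 0.659 (0.498 to 0.868) in KO, Het and WT cuprizone and 0.738 (0.600 to 0.905) in WT control. Tgfbr1 and Smad7 were the 2 members called in Het and in WT cuprizone, each of 7, where 14.4% and 12.6% of genes were lower. The other calls in cluster 07 were Smad3 higher in KO, on 40 and 11 UMIs, with 5.28% of genes higher, and Smad2 lower in WT control, with 5.5% lower.

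Cluster 02 held the deepest cells, with a median of 16984.5 UMIs against 7185 in cluster 05. The ligand and its anchor were below cluster 05 there in every library. Tgfb1 ratios were 0.829, 0.758 and 0.829 in KO, Het and WT cuprizone and 0.785 in WT control. Nrros ratios were 0.704, 0.639 and 0.667 in the cuprizone libraries and 0.724 in WT control; the Het value passed 1.5-fold, where 8.52% of genes were lower. Tgfbr1 was above cluster 05 in all 4, with an interval that held 1 in KO, at 1.04, 1.23 and 1.22 in KO, Het and WT cuprizone and 1.32 in WT control. Tgfbr2 ratios ranged from 1.14 to 1.48 and Ski ratios from 1.15 to 1.35. The other calls were Smad4 higher in WT cuprizone, on 61 and 7 UMIs, with 5.48% of genes higher, and Smad2 lower in WT control, with 4.2% of genes lower.

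**Figure D4:**
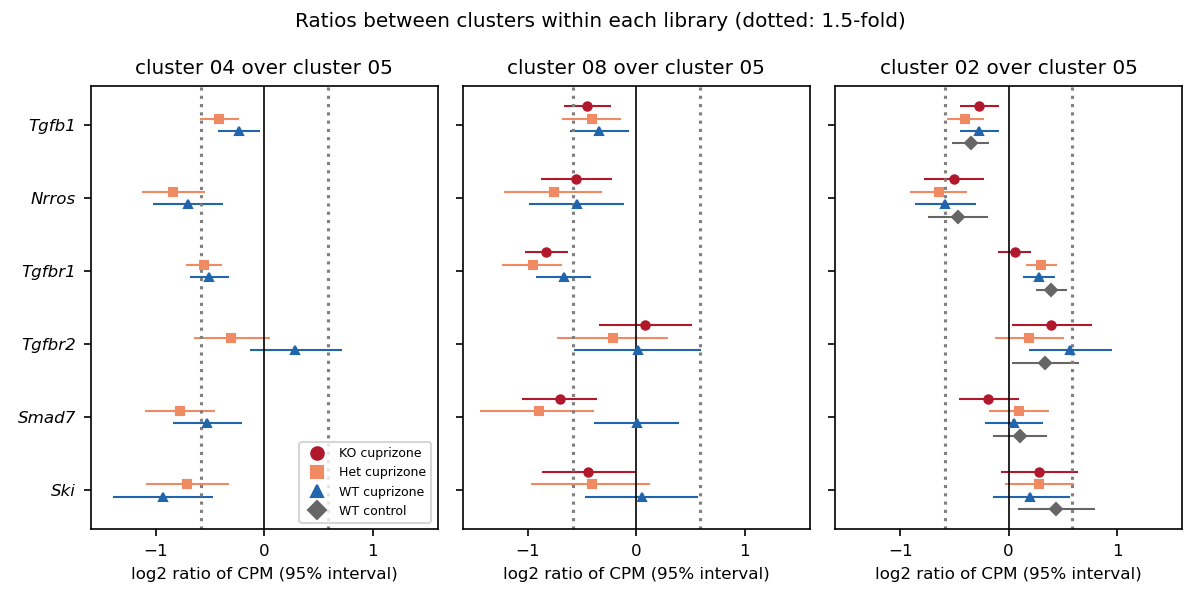
Log2 ratio of CPM (horizontal axis) of 6 members in cluster 04, 08 or 02 over cluster 05 within each library (symbols; whiskers, 95% counting intervals), with dotted lines at 1.5-fold. Nrros lies left of 0 in every panel and library shown, and Tgfbr1 lies left of 0 in clusters 04 and 08 and right of it in cluster 02, where its ratio reaches 1.32 in WT control.

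The order of clusters was taken from means over the libraries with at least 20 cells (4 libraries, but 2 for clusters 03 and 04 and 3 for cluster 08). The SD spans libraries that differ in genotype or diet, so it is not a spread of replicates. Tgfb1 was highest in clusters 06 and 01, at 507 ± 67.4 and 503 ± 30.6 CPM (SD). Within libraries, cluster 06 was the higher in WT cuprizone and WT control and cluster 01 in KO and Het. Tgfb1 was 472 ± 19.4 in cluster 05 and 351 ± 18.1 in cluster 08. Nrros was at 213 ± 15.8, 203 ± 22.8, 202 ± 3.52 and 189.7 ± 22.1 CPM in clusters 01, 07, 05 and 06, and at 138 ± 5.63, 132 ± 8.67 and 119.9 ± 5.30 CPM in clusters 02, 08 and 04. The point values of these upper 4 and lower 3 clusters did not overlap, but the groups were cut after ranking on the same values. The lowest of the upper 4 was 158 (124 to 198) CPM, in cluster 06 of KO. The highest of the lower 3 was 145 (126 to 166) CPM, in cluster 02 of WT control, and these counting intervals overlapped. Tgfbr1 was highest in cluster 02, at 722 ± 66.5 CPM, then 602 ± 10.6 in cluster 05, 421 ± 18.1 in cluster 04 and 345 ± 39.0 in cluster 08. Of the 6 pooled clusters, Ski was highest in cluster 02 at 134 ± 8.13 CPM and lowest in cluster 04 at 65.0 ± 10.5 CPM, next to 69.0 ± 10.2 CPM in cluster 01. Smad7 was at 226 ± 23.2 CPM in cluster 01 and 116 ± 27.3 CPM in cluster 04. In cluster 08, where the libraries differed, its mean was 135 ± 54.9 CPM. Smad3 and Smad4 were highest in cluster 02, at 30.6 ± 1.75 and 22.3 ± 4.84 CPM, and Smad2 in cluster 01, at 51.3 ± 13.02 CPM. Depth differed between clusters: cells of clusters 01 and 06 had medians of 3387 and 3541 UMIs and those of cluster 02 the most. Over the 25 sums of the clusters other than 03, r with log2 depth was -0.64 for Tgfb1, -0.51 for Nrros, 0.44 for Tgfbr1, 0.70 for Tgfbr2, 0.59 for Ski and 0.00 for Smad7, and the part of depth was not tested.

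Genes with the most similar pattern were found over the 27 library-by-cluster sums of at least 20 cells, by Pearson r of log2(CPM + 10) among 3352 genes with at least 1000 UMIs. Because cluster 03 differs so much from the rest, r without its sums is given second. These sums share libraries and depth, so r is a description. Tgfb1 ran most like Pla2g15 (r = 0.973, 0.889), Lpxn (0.969, 0.879) and Cyth4 (0.961, 0.911). For Nrros the nearest were Rab3il1 (0.954, 0.783), Hpgd (0.951, 0.798) and P2ry6 (0.947, 0.810). Tgfbr1 was nearest to the fractalkine receptor gene Cx3cr1 (0.977, 0.915), with Pou2f2 and Mtdh after it. The nearest to Smad7 was Tmcc3 (0.939, 0.859), to Tgfbr2 Col27a1 (0.867, 0.745) and to Ski Kcnk6 (0.890, 0.729). Between members, r over the 25 sums without cluster 03 was 0.62 for Tgfb1 and Nrros, 0.67 for Tgfbr1 and Smad7, 0.62 for Tgfbr2 and Ski and -0.35 for Tgfb1 and Ski.

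The rest of the pathway was read from 8 further lists. Of the other ligand and latent-complex genes, 2 had enough UMIs: Furin, the protease that cuts the propeptide, and the ligand gene Gdf15. Neither was called in the 3 comparisons between libraries, which this account of the lists follows unless a cluster is named. Gdf15 was at 1.66 (0.940 to 3.09) in WT cuprizone over WT control. None of the 4 measured activating integrin and thrombospondin genes was called either: Itgb5, the integrin beta5 chain, was at 0.957, 1.03 and 0.964 in KO over WT cuprizone, Het over WT cuprizone and WT cuprizone over WT control, and Itgb1 at 0.868, 1.07 and 0.922. Among 7 other receptors, the activin receptor gene Acvr2b was the 1 gene called. Its level was 17.7, 10.5 and 10.2 CPM in the KO, Het and WT cuprizone libraries and 15.4 CPM in the WT control library. Acvr2b was high in KO and WT control. Its ratios were 1.73 (1.26 to 2.39) for KO over WT cuprizone and 0.663 (0.455 to 0.968) for WT cuprizone over WT control. Of all genes, 1.64% were called higher in the former and 4.44% lower in the latter. Both ratios were called, and they share the WT cuprizone library. The most abundant in that list were Eng, at 0.799, 0.972 and 0.767 in the 3 comparisons, and Bmpr2. None of 7 other Smads and nuclear partners passed, among them Smad1, Runx1 and Tcf3, nor did any of the 8 genes of the non-Smad branch, led by Rhoa.

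Of the inhibitors, 15 were measured in the KO and Het comparisons and 14 in WT cuprizone over WT control. Bambi, which makes a receptor without a kinase, was the 1 call, with 14.1, 31.4 and 19.8 CPM in the KO, Het and WT cuprizone libraries and 19.2 CPM in the WT control library. Het stood above all the others, and Het over WT cuprizone gave 1.59 (1.27 to 2.01), where 1.32% of all genes were called higher. Pmepa1 and Skil, which TGF-beta induces in many cells, were not called. Pmepa1, which holds SMADs away from the receptor, had ratios of 1.09, 0.945 and 0.826 in the 3 comparisons. Skil, a relative of Ski, had 1.13, 1.02 and 0.757.

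Of 8 general target genes, 3 were higher in WT cuprizone than in WT control, where 2.59% of all genes were higher. Id2, an inhibitor of helix-loop-helix factors, was at 159, 175 and 232 CPM in the KO, Het and WT cuprizone libraries and 129 CPM in the WT control library. WT cuprizone was highest, with a ratio of 1.79 (1.61 to 1.99) over WT control. KO over WT cuprizone was 0.687 (0.634 to 0.745), not past 1.5-fold. Id2 was also higher in cluster 04 than in the comparator cluster, in both Het and WT cuprizone (below). Cluster 04 held 13 KO, 150 Het and 122 WT cuprizone cells and 6 WT control cells. The part of cluster make-up in the ratios of the general targets was not tested. Cdkn1a, the cell-cycle brake p21, had 1.59 (1.41 to 1.80) in WT cuprizone over WT control. Fn1, fibronectin and also one of the monocyte markers, rested on 1, 34 and 53 UMIs in KO, Het and WT cuprizone and 8 in WT control. Its ratios were 0.0179 (0.000445 to 0.104) for KO over WT cuprizone, 0.605 (0.381 to 0.948) for Het over WT cuprizone and 3.90 (1.84 to 9.51) for WT cuprizone over WT control. All 3 Fn1 ratios were called. Of all genes, 3.86% were called lower in KO over WT cuprizone and 1.17% in Het over WT cuprizone. Junb, an AP-1 gene, stayed at 1.02, 0.994 and 1.02.

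All 20 genes known to depend on TGF-beta in mouse microglia were measured, and 10 of them are also the microglia markers used above. Gas6, a bridging ligand for the uptake of dying cells, was the 1 call. It was at 197, 146 and 123 CPM in the KO, Het and WT cuprizone libraries and 163 CPM in the WT control library. Its KO over WT cuprizone ratio was 1.59997 (1.46 to 1.75), where 1.64% of all genes were called higher. The median log2 ratio of the 20 was 0.13 in KO over WT cuprizone, 0.01 in Het over WT cuprizone and -0.30 in WT cuprizone over WT control. None of the 20 passed 1.5-fold in the last of these. The medians over all genes were -0.002, -0.008 and -0.11, and TMM scaling moved the last to 0.01. Inside cluster 05 the median of the 20 for WT cuprizone over WT control was -0.01. In cluster 04 over cluster 05, 15 of the 20 were lower in Het and 15 in WT cuprizone, with medians of -1.02 and -0.87. Of all genes, 24.6% and 21.5% were lower there, and the medians were -0.30 and -0.23. P2ry12 had a ratio of 0.279 and Tmem119 of 0.335 there in WT cuprizone, and many of these genes were used to make the clusters. Pmepa1 and Skil were lower in cluster 04 in both libraries, at 0.588 and 0.663 in Het and 0.558 and 0.638 in WT cuprizone. Id2, a general target, was higher in both, at 1.88 in Het and 1.80 in WT cuprizone. The general targets split there: of 6 measured, 2 were higher and 1 lower in Het, and 2 higher and 2 lower in WT cuprizone. Bambi was higher in cluster 04 in Het, at 2.66 (1.49 to 5.10). All genes called higher there made up 6.48% in Het and 7.7% in WT cuprizone.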

How the data were processed

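Single-cell 3′ RNA libraries (Chromium, v2 chemistry) were made from sorted microglia of 4 groups, 1 library each. The submitters' processing notes name Cell Ranger 2.1.1 and mm10 for the deposited counts, whole UMIs by gene and cell. Cells of low quality were dropped by the authors before they joined the libraries, per the notes with the files. The clusters are the authors' own; for clustering settings and gene annotation, nothing was given in the sources used.

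Counts were summed over 6 clusters of each library and divided by total UMIs (CPM). CPM has exact Poisson 95% intervals and a ratio exact conditional binomial (Clopper-Pearson) intervals. PCR duplicates are removed by the UMI, and counting error alone is covered. With 1 library per group no test was made. A group at 0 UMIs was set to 3 UMIs. No doublet caller was run; leaving out the 5% deepest cells was one alternative. Other alternatives changed the cells summed, the scaling (TMM from edgeR 4.0.16; size factors from DESeq2 1.42.0), the weight of cells, cluster shares, the minimum of UMIs and the fold. Sequences and gene starts came from RefSeq on GRCm38.p6. Scripts ran on Python 3.11.15 and R 4.3.3 and were tested on simulated data.

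All members are named, with list genes that passed 1.5-fold and the 2 of each list with the most UMIs in a comparison; cluster 04 genes outside that rule and the clusters discussed were chosen after their values were seen. Members and lists were chosen with earlier results of these data known. The lists come from general knowledge.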

Additional observations from a re-analysis of the deposited data

How the results depend on the processing

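In the 3 comparisons between libraries no member passed 1.5-fold under any alternative run, and 204 of 216 member ratios stayed within the main counting interval. The exceptions beyond those given above came mostly from averaging cluster CPM at the WT cuprizone cluster shares, which rests on 13 KO and 6 WT control cells in cluster 04. They were Nrros 0.888, Smad7 0.796 and Ski 0.957 for KO over WT cuprizone, so Ski lay below 1 there. They were also Tgfbr1 1.02 for Het over WT cuprizone, and Nrros 1.02 and Smad4 1.26 for WT cuprizone over WT control. For WT cuprizone over WT control, size factors gave Tgfb1 0.974 and Tgfbr1 0.988, and mean CPM per cell gave Tgfbr1 0.865. Smad7 ran over the alternatives between 0.796 and 0.935 for KO over WT cuprizone and 0.808 and 0.843 for Het over WT cuprizone. The count of all genes past 1.5-fold, 506 for KO over WT cuprizone, was 774 at those shares and 149 at 2-fold. For Het over WT cuprizone 230 genes became 355 with all cells, 489 with mean CPM per cell, 427 at those shares, 399 without a minimum of UMIs and 63 at 2-fold. For WT cuprizone over WT control 620 became 175 at 2-fold. The cause of these shifts was not tested. Smad3 and Smad4 are limited by depth, at 620 and 424 UMIs over all cells, and cluster 04 and 08 by few cells in WT control. No paired analysis was possible because each group holds 1 library.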
